A study of Mus musculus with 6 samples.

Results

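The comparison set rHuEPO replicates 2 and 3 against PBS replicates 1 and 2 in the bone marrow of anemic mice. These are the 4 arrays of the series that were hybridised on 1 slide, and they were chosen by that slide out of 6 arrays in all. Every sample came from femur marrow cells of male ISAM mice, genotype Epo-/-::3.3K-Epo3'-Tg458, strain Mixed, aged 10 weeks. The mice lack their own Epo gene and carry an Epo transgene driven by a limited stretch of the gene's own regulatory sequence, so treated and control samples alike came from erythropoietin-deficient animals. Recombinant human erythropoietin (rHuEPO) was given into the peritoneal cavity at 3000 U/kg, and the controls received phosphate-buffered saline (PBS) by the same route. Marrow was taken 6 h later. The remaining 2 arrays, untreated replicate 1 and rHuEPO replicate 1, shared the other slide. They are used here only to ask whether a difference recurred on arrays that took no part in the comparison. Unlike PBS, the untreated mouse marrow had no injection. Since the labels only number the samples and do not say that each is another animal, a p-value reflects the spread among these arrays, which may be technical.

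Erythropoietin is the hormone that keeps red cell precursors alive and dividing. Its receptor on colony-forming progenitors and early erythroblasts activates the kinase JAK2, which phosphorylates the transcription factor STAT5. STAT5 dimers then bind a short palindromic DNA element and switch on genes that include feedback inhibitors of the same pathway. Erythroblasts also respond with the hormone erythroferrone, which lowers hepcidin in the liver and so frees iron for hemoglobin. Whole marrow holds many other cells (granulocyte precursors, B cells, macrophages, megakaryocytes, stroma), and in such bulk samples fewer cells of a type and less RNA per cell cannot be told apart.

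The 4 arrays had a 75th percentile signal of 220.7 to 258.3. The share of gene spots well above background was 48.6% and 49.1% on the PBS arrays and 46.6% and 46.2% on the rHuEPO arrays. The median signal of negative control spots was 3.74 and 3.94 on the PBS arrays and 5.12 and 4.73 on the rHuEPO arrays, so the dim end of the scale differed between the arms. The PBS arrays lay at positions 1 and 2 of the slide and the rHuEPO arrays at positions 3 and 4, and the effects of position and of treatment cannot be told apart. On the other slide the untreated array was at position 1 and the rHuEPO array at position 3. All marker genes of erythroid cells, granulocytes, T and NK cells, macrophages, megakaryocytes and stroma were well above background on all 4 arrays. Of the B cell markers Pax5 was so on 1 array only. Markers of liver (Alb), heart (Myh6) and pancreas (Ins2) were so on 0 of 4. The 2 probes for Epo itself were well above background on none of the 4 arrays, so the deletion could not be compared with a level.

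After the injection of rHuEPO 3 named genes rose and none fell among 14905 tested (limma, adjusted p below 0.05), which is 0.0201% of the genes tested. They were Erfe, Cish and Trim15. Erfe and Trim15 met the filter on dim probes through the rHuEPO arrays alone, so their p-values rest on PBS readings not well above background. Levels below are log2 of the signal over the array's 75th percentile, and a change is the mean of the rHuEPO arrays minus the mean of the PBS arrays on that scale, with its standard error from limma (SE, 2 against 2 arrays). At an unadjusted p below 0.05 the test listed 531 genes higher (3.56%) and 485 lower (3.25%). Under median scaling that split was 744 to 351, and with normexp background correction 569 to 329. With 2 arrays an arm, the precision is limited by their number. An exact permutation test of 2 against 2 arrays cannot give a two-sided p below 0.333, so limma, which borrows the spread of all genes, was the test used.

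Erfe encodes erythroferrone. Its probe (A_51_P121179, gene on chromosome 1) read -5.77 and -5.97 on the PBS arrays and 0.58 and 0.98 on the rHuEPO arrays. It was not well above background on either PBS array and was so on both rHuEPO arrays. The rHuEPO arrays lay far above the PBS arrays, and arrays of the same arm differed little. Against the lowest signal that was well above background, Erfe was higher by at least 22.8-fold (limma adjusted p = 0.00682 for the readings themselves). Among the arrays of the other slide it was likewise above background only after rHuEPO, at 0.91 against -5.69. With normexp background correction, which compresses dim readings, its change was 2.72 instead of 6.65.

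Cish encodes a feedback inhibitor that docks on cytokine receptors activating STAT5. It was well above background on all 4 arrays (probe A_51_P470715, gene on chromosome 9). The readings were 0.66 and 0.61 with PBS and 4.47 and 4.75 with rHuEPO. Both PBS arrays were nearly level, and the change was 3.97 ± 0.19, a 15.7-fold rise (limma adjusted p = 0.0166). The change on the other slide was 4.53.

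Trim15, a member of the tripartite motif family, stood with them (probe A_52_P233342, gene on chromosome 17). It read -6.06 and -6.03 with PBS, both below the limit for well above background, and -2.26 and -2.20 with rHuEPO. The rise was at least 2.84-fold (limma adjusted p = 0.0166 for the readings). Its call ended with normexp background correction (change 0.78, limma adjusted p = 0.390) and with an intensity trend and robust prior (adjusted p = 0.114), so the size of its change rests on how dim readings are treated. With no filter on dim probes, which raises the genes tested to 32288, limma called none, and the adjusted p was 0.171 for Erfe and Trim15 and 0.243 for Cish. All 3 calls also ended when rHuEPO replicate 2 or rHuEPO replicate 3 was left out, which leaves 1 array in that arm. The count was then 0, with 314 and 225 genes higher at an unadjusted p below 0.05. It was 9 genes without PBS replicate 1 and 25 without PBS replicate 2, and the 3 genes were among them in both fits.

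**Figure D1:**
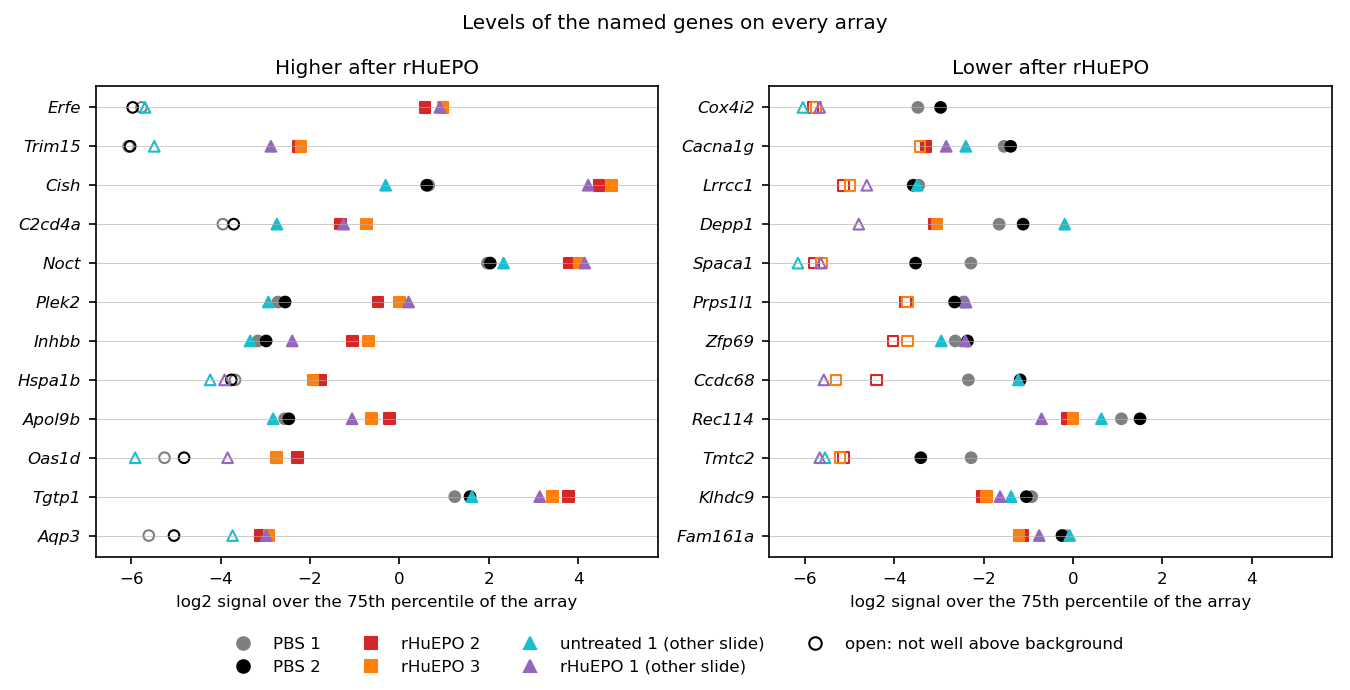
Level of the 12 named genes higher and the 12 lower after rHuEPO on each of the 6 arrays, as log2 signal over the array's 75th percentile. Circles are PBS, squares rHuEPO replicates 2 and 3, triangles the other slide, and open symbols were not well above background. Cish runs from 0.61 and 0.66 with PBS to 4.47 and 4.75 with rHuEPO, while most of the lower genes have open squares.

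The promoters of the rising genes and of Socs3 were searched for TTCNNNGAA, the palindromic STAT element, which reads the same on both strands. RefSeq promoters of build GRCm38.p6, 250 bases before to 50 after a gene's start, were used. The element occurred in 8.30% of all 32851 promoters of this length. The Cish promoter held it at positions 1 and 12 after the start, the Socs3 promoter at -154 and the first of the 2 Trim15 promoters at -226. The second Trim15 promoter held it at -249 and 21. The promoter of Erfe held none in this window. Of the 14 tested members of the JAK2-STAT5 list with a RefSeq promoter, 3 held the element, Cish and Socs3 among them. Of all genes tested that have a promoter, 8.51% did. The stretches that carry it are shown because Cish and Trim15 passed the test and Socs3 is the classic partner of Cish in receptor feedback. Capitals mark the element, and the intervals are chr9:107296609-107296678 on the plus strand, chr11:117969462-117969570 on the minus strand and chr17:36867378-36867460 on the minus strand.
Cish: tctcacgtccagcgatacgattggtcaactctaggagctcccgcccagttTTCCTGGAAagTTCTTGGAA
Socs3: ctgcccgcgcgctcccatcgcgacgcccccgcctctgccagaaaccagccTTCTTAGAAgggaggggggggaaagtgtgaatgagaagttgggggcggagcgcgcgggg
Trim15: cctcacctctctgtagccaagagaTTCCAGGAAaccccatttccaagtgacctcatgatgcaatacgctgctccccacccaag
A match of letters is a description of the sequence and was not tested for binding.

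Other members of the JAK2-STAT5 pathway had smaller differences than Cish and did not pass the test. Pim1, a survival kinase induced by STAT5, read 0.40 and 1.28 with PBS and 1.97 and 2.23 with rHuEPO. The arms did not overlap, and the change was 1.26 ± 0.33 (limma adjusted p = 0.588). Socs3, an inhibitor of JAK kinases, read 3.11 and 3.74 against 4.22 and 4.10, a change of 0.73 ± 0.26 (limma adjusted p = 0.713). Socs2, the growth hormone pathway's inhibitor, was well above background on 1 of the 2 PBS arrays and had a change of 0.75 ± 0.33. The receptor gene Epor read 4.004 and 4.75 with PBS and 4.65 and 4.92 with rHuEPO, and the arms overlapped. The survival gene Bcl2l1 had a change of 0.11 ± 0.23 and the cytokine gene Osm of 0.30 ± 0.49, and the sign of both turned without PBS replicate 1. Over the 17 tested members of the pathway list the median change was 0.11, against -0.017 over all genes. In 4 of the 17 both rHuEPO arrays exceeded both PBS arrays, as they did in 18.3% of all genes, and in 1 both lay below (18.6% of all genes).

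Beyond the genes that passed, 9 more higher genes were taken by the naming rule, which fills up with the smallest p among genes whose arms did not overlap. Their adjusted p ran from 0.137 to 0.164. Noct encodes nocturnin, a phosphatase of NADP cofactors with a circadian rhythm. Its readings were 1.97 and 2.04 with PBS and 3.81 and 4.02 with rHuEPO, a change of 1.91 ± 0.18. Plek2, an actin-organising pleckstrin of erythroblasts, read -2.72 and -2.56 against -0.47 and 0.00, a change of 2.40 ± 0.23. The changes on the other slide were 1.82 for Noct and 3.14 for Plek2. Inhbb, the beta B chain of activin and inhibin, read -3.17 and -2.98 against -1.05 and -0.70. A second, dimmer probe for Inhbb differed by 0.032 only, and the change on the other slide was 0.94 against 2.20 here. C2cd4a, a C2 domain protein, was not well above background with PBS (-3.95 and -3.71) and read -1.32 and -0.74 with rHuEPO, at least 6.45-fold higher. The water and glycerol channel Aqp3 was likewise dim with PBS and at least 1.65-fold higher.

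Of the same 9 genes, 3 belong to the interferon-induced families, and the stress protein Hspa1b is the last. Apol9b, an apolipoprotein L family gene, read -2.57 and -2.47 with PBS and -0.22 and -0.63 with rHuEPO. Tgtp1, an immunity-related GTPase, read 1.24 and 1.58 against 3.78 and 3.43. Oas1d, of the oligoadenylate synthetase family, was dim with PBS and at least 2.34-fold higher. In all of them the rHuEPO arrays lay closer to each other than to either PBS array, an order that the naming rule favours. Hspa1b, an inducible Hsp70, read -3.68 and -3.76 against -1.76 and -1.93, not well above background with PBS and at least 3.65-fold higher. On the other slide Hspa1b was not well above background on either array.

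Small GTPase regulators gave 3 further genes of large change. Arhgdig, a GDP dissociation inhibitor, read -4.05 and -3.30 with PBS and -0.998 and -0.44 with rHuEPO. Only 1 of the 2 PBS arrays was well above background, and the change was 2.96 ± 0.34 (limma adjusted p = 0.164). Dim on both PBS arrays, the G protein signalling regulator Rgs16 was at least 2.10-fold higher. Grtp1, with a TBC domain, had a change of 1.88 ± 0.23. Their list of 21 did not lie high as a whole, with a median of -0.030 and 9 members above 0. The binding protein of insulin-like growth factors Igfbp2 read -4.79 and -5.83 with PBS, not well above background, and -1.58 and -2.11 with rHuEPO, a difference of at least 3.70-fold (limma adjusted p = 0.164 for the readings).

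None of the 12 genes named in the lower direction passed (limma adjusted p 0.137 to 0.404). For 7 of them, Cox4i2, Lrrcc1, Spaca1, Prps1l1, Zfp69, Ccdc68 and Tmtc2, neither rHuEPO array was well above background. Over all genes 330 were dim on both rHuEPO arrays and 36 on both PBS arrays. Cox4i2, a subunit isoform of cytochrome c oxidase, read -3.47 and -2.96 with PBS and -5.82 and -5.75 with rHuEPO, at least 1.24-fold lower. Spaca1, an acrosomal protein of sperm, read -2.28 and -3.52 against -5.79 and -5.63, at least 1.54-fold lower. Neither gene was well above background on either array of the other slide. Ccdc68, a coiled-coil protein of the centriole, read -2.34 and -1.18 against -4.40 and -5.30. It was at least 3.40-fold lower, and on the other slide it was above background in the untreated sample only. Bounds for the other 4 dim genes were 1.01-fold (the centrosomal gene Lrrcc1), 1.61-fold (Tmtc2), 1.97-fold (Prps1l1) and 2.04-fold (Zfp69) lower.

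The remaining 5 lower genes were measured on at least 1 rHuEPO array. The T-type calcium channel gene Cacna1g read -1.54 and -1.39 with PBS and -3.29 and -3.42 with rHuEPO, where 1 of the 2 arrays was well above background. Depp1 read -1.65 and -1.12 against -3.10 and -3.04, a change of -1.69 ± 0.24. The meiotic gene Rec114 read 1.09 and 1.503 against -0.13 and 0.00, a change of -1.36 ± 0.22 that was -1.34 on the other slide. Klhdc9 and the ciliary gene Fam161a had changes of -0.996 ± 0.18 and -0.95 ± 0.17. In each of the 5 the gap between arms was larger than that between arrays of the same arm, which is what the naming rule selects for.

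Nucleolar ribosome biogenesis genes had the largest median change of the 44 lists in the reported fit. With normexp background correction their median was 0.43, below metallothioneins and zinc (0.49) and interferon-stimulated genes (0.44). These factors make and process ribosomal RNA and assemble the ribosomal subunits, and growing cells raise them together. All 39 tested members lay above 0, as did 47.2% of all genes tested, and in all 39 both rHuEPO arrays exceeded both PBS arrays, against 18.3% of all genes. Their changes ran from 0.19 to 0.90 with a median of 0.58, none passed the test singly, and 18 had an unadjusted p below 0.05. Noc4l, a factor of the small subunit, read 1.95 and 2.34 with PBS and 2.93 and 3.16 with rHuEPO, a change of 0.90 ± 0.22 (limma adjusted p = 0.567). Noc2l, which escorts the large subunit, read 2.90 and 3.18 against 3.80 and 3.90. Bysl, the bystin gene of small subunit assembly, read 3.22 and 3.63 against 4.05 and 4.44. The mean level of the list, with each gene centred on the 4 arrays, was -0.46 and -0.098 with PBS and 0.18 and 0.38 with rHuEPO. PBS replicate 1 was the lowest of the 4. In 7 of the 39 members the gap between the PBS arrays exceeded the change, as it did in 64.25% of all genes. On the other slide all 39 were above 0 too, with a median of 0.54. CACGTG, the E-box bound by MYC among other factors and identical on both strands, occurred in the promoters of 10 of the 34 members with a RefSeq promoter, against 11.9% of all genes tested that have one.

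Aminoacyl-tRNA synthetases, which charge tRNAs with their amino acids, had a median of 0.47. Of 20 members 19 lay above 0 (47.2% of all genes), and in 16 the rHuEPO arrays were both above the PBS arrays (18.3% of all genes). Gars, for glycine, read -1.90 and -1.83 against -1.16 and -0.55, a change of 1.01 ± 0.25. Nars, for asparagine, and Tars, for threonine, differed by 0.84 ± 0.19 and 0.69 ± 0.21. On the other slide 19 of 20 were above 0 with a median of 0.52. The 2 contrasts share no array.

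Supply pathways for nucleotides and one-carbon units lay in the same direction with smaller medians. Over all genes 47.2% lay above 0 and 18.3% had both rHuEPO arrays above both PBS arrays. In de novo purine and pyrimidine synthesis 15 of 19 members were above 0 (median 0.33) and 14 had both rHuEPO arrays above both PBS arrays. Cad, the trifunctional starter of pyrimidine synthesis, read 2.74 and 3.15 against 3.32 and 3.68. Ppat, the first committed enzyme of purine synthesis, and Prps1, which makes its sugar phosphate, differed by 0.70 ± 0.29 and 0.55 ± 0.23. Among serine and one-carbon genes 15 of 16 were above 0 (median 0.23) and 8 of 16 had both rHuEPO arrays above both PBS arrays. The mitochondrial folate enzymes Mthfd2 and Shmt2 differed by 0.89 ± 0.22 and 0.90 ± 0.25, and the cytosolic Mthfd1 by 0.91 ± 0.29. Srm, the spermidine synthase gene, read 4.26 and 4.70 with PBS and 5.19 and 5.47 with rHuEPO. Of 28 proteasome subunits 26 lay above 0, though with a median of 0.18. None of these members passed the test.

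Genes of the finished ribosome and of the cell cycle machinery had medians nearer to that of all genes. Of the 29 cytosolic ribosomal protein genes 22 lay above 0, with a median of 0.080, and in 2 of 29 both rHuEPO arrays were above both PBS arrays (18.3% of all genes). Their median was 0.0092 on the other slide. DNA replication genes had a median of -0.0098 (12 of 26 above 0) and mitosis genes of -0.071 (8 of 23). Myc itself read 1.52 and 2.90 with PBS and 2.90 and 3.26 with rHuEPO. Its change of 0.87 ± 0.47 rested on PBS replicate 1, and the arms overlapped narrowly (PBS replicate 2 at 2.897, rHuEPO replicate 2 at 2.895). Dimmer probes for Myc differed by 0.93 and 0.98 without overlap, again with PBS replicate 1 the lowest. The 12 genes of the MYC network had a median of -0.017.

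**Figure D2:**
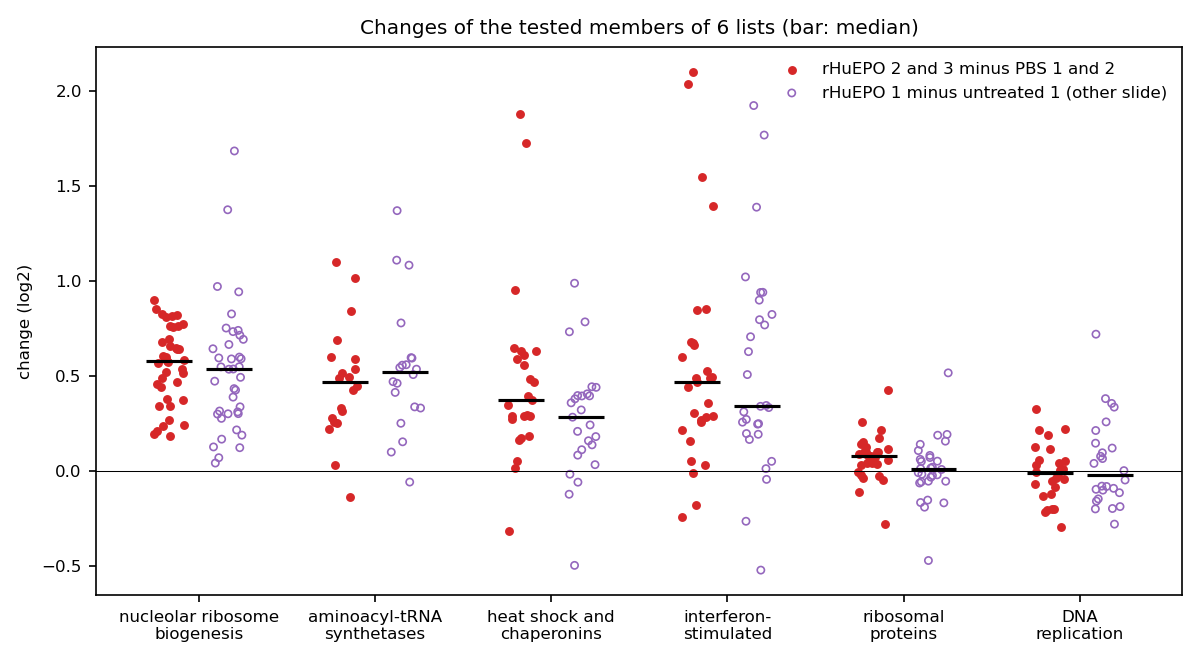
Change of each tested member of 6 lists (points, log2) with the median as a bar, for rHuEPO replicates 2 and 3 minus PBS (filled) and rHuEPO 1 minus untreated (open, other slide). All 39 nucleolar genes lie above 0 in both contrasts, with medians of 0.58 and 0.54, while 22 of 29 ribosomal protein genes and 12 of 26 DNA replication genes lie above 0 on the slide of 4.

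Heat shock and chaperonin genes code for proteins that fold others and are raised by proteotoxic stress as well as by growth. Of 25 tested members 24 lay above 0 (median 0.37, with 47.2% of all genes above 0), and in 20 both rHuEPO arrays exceeded both PBS arrays (18.3% of all genes). The inducible Hsp70 genes led. Hspa1a read -0.999 and -0.07 with PBS and 1.41 and 0.97 with rHuEPO, a change of 1.72 ± 0.36 (limma adjusted p = 0.532). Hspa1a and Hspa1b are near-identical copies, so their probes may share transcripts and the values of either are uncertain. Hsph1, the Hsp110 co-chaperone, read 3.33 and 3.14 against 4.11 and 4.27, a change of 0.95 ± 0.19. Hsph1 differed by 0.16 and Hspa1a by 0.73 on the other slide. The difference between the slides was 0.79 ± 0.32 for Hsph1 and 0.99 ± 0.62 for Hspa1a and did not pass (limma adjusted p = 1.00 for both). The median of the list on the other slide was 0.28. The heat shock element was searched on both strands as GAA, NN, TTC, NN and GAA in a row. It occurred in the promoters of Hspd1, Hspe1 and Hsph1 out of 19 members with a RefSeq promoter. Of all genes tested that have one, 0.550% held it, and of all promoters 0.603%.

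Interferon-stimulated genes, the antiviral program switched on by interferons, had a median of 0.47. Of 29 tested members 26 lay above 0 (47.2% of all genes), and in 16 both rHuEPO arrays were above both PBS arrays (18.3% of all genes). The median was 0.15 without rHuEPO replicate 2 and 0.68 without rHuEPO replicate 3. Isg15, a ubiquitin-like modifier, read 3.95 and 4.53 with PBS and 6.32 and 6.23 with rHuEPO. This change of 2.03 ± 0.25 (limma adjusted p = 0.173) was far larger than the spread within either arm. Ifit1, which binds foreign RNA, read -1.28 and -1.08 against 0.61 and 0.12. Changes on the other slide were 1.39 for Isg15, 1.92 for Ifit1 and 1.77 for Apol9b. The list's mean level was -0.14 and -0.42 with PBS and 0.52 and 0.037 with rHuEPO, so the 2 rHuEPO arrays differed from each other by more than the PBS arrays did. The levels of monocyte and macrophage and of T and NK cell genes are given further on, and their part in this list was not tested.

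The interferon element was searched on both strands as GAAA, NN and GAAA in a row. It was present in the promoters of 15 of the 21 members that have a RefSeq promoter, against 3.74% of all genes tested that have one. Counted by promoter, 3.44% of all promoters held it. Isg15, Ifit1 and Apol9b, the members with the smallest p, are shown with the element in capitals, where the runs in Isg15 and Apol9b hold overlapping matches. The intervals are chr4:156200825-156200946 on the minus strand, chr19:34640735-34640863 on the plus strand and chr15:77728985-77729071 on the plus strand.
Isg15: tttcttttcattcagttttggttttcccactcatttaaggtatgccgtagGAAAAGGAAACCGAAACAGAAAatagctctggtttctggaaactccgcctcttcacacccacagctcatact
Ifit1: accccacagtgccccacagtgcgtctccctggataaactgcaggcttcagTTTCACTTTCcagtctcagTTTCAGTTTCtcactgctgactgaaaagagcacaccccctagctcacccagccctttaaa
Apol9b: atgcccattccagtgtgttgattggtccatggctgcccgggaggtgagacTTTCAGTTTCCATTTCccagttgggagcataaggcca
In Ifit1 and Apol9b the capitals show the element as read on the opposite strand.

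Red cell genes were less uniform. Tfrc, the transferrin receptor that brings iron into erythroblasts, read 2.54 and 3.06 with PBS and 3.76 and 3.82 with rHuEPO, a change of 0.99 ± 0.24 (limma adjusted p = 0.567). Sptb, the beta chain of spectrin in the membrane skeleton, read 1.22 and 1.51 against 2.40 and 2.60, a change of 1.14 ± 0.20. A dimmer probe for Sptb differed by -0.12. The ammonia channel Rhag differed by 0.92 ± 0.27 and the porphyrin enzyme Cpox by 0.94 ± 0.30. Abcg2, a porphyrin exporter, read 2.11 and 2.96 against 3.46 and 3.76. Slc25a38, the glycine carrier for heme synthesis, lay the other way with a change of -0.49 ± 0.20. Pklr, the red cell isoform of pyruvate kinase, read -4.10 and -3.03 with PBS, where 1 of 2 arrays was well above background, and -1.27 and -0.79 with rHuEPO. Hk1, the hexokinase of red cells, differed by 0.57 ± 0.18. None of these genes passed the test. Pklr and Hk1 belong to the glycolysis list, which had 11 of 22 members above 0 and a median of -0.0071. In 2 of those 22 both rHuEPO arrays exceeded both PBS arrays (18.3% of all genes). The list of iron uptake and erythroferrone had 14 of 24 members above 0 and a median of 0.039.

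As whole lists, heme synthesis had 12 of 14 members above 0 and a median of 0.22, and the red cell membrane 18 of 26 and 0.20 (47.2% of all genes lay above 0). Without PBS replicate 1 these medians were -0.024 and -0.15, and without PBS replicate 2 they were 0.55 and 0.56. In mean level PBS replicate 2 lay between the rHuEPO arrays for both. Membrane genes had mean levels of -0.42 and 0.11 with PBS and 0.071 and 0.25 with rHuEPO. The globins did not separate the arms. Hba-a1, an alpha globin gene, read 9.57 and 9.59 with PBS and 9.53 and 9.75 with rHuEPO, and Alas2, the first enzyme of erythroid heme synthesis, 7.33 and 8.24 against 7.62 and 7.88. The list of erythroid transcription factors had 12 of 19 members above 0, a median of 0.11 and changes from -0.78 to 0.72. In 2 of the 19 both rHuEPO arrays exceeded both PBS arrays and in 2 both lay below (18.3% and 18.6% of all genes). Gata1 and Klf1, which belong to these factors, differed by 0.72 ± 0.34 and 0.60 ± 0.35. Gata1 had both rHuEPO arrays just above PBS replicate 2 (2.32 against 2.46 and 2.68). Gdf15, a stress cytokine of erythroblasts, differed more between the PBS arrays (-3.84, not well above background, and -1.06) than between the arms.

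**Figure D3:**
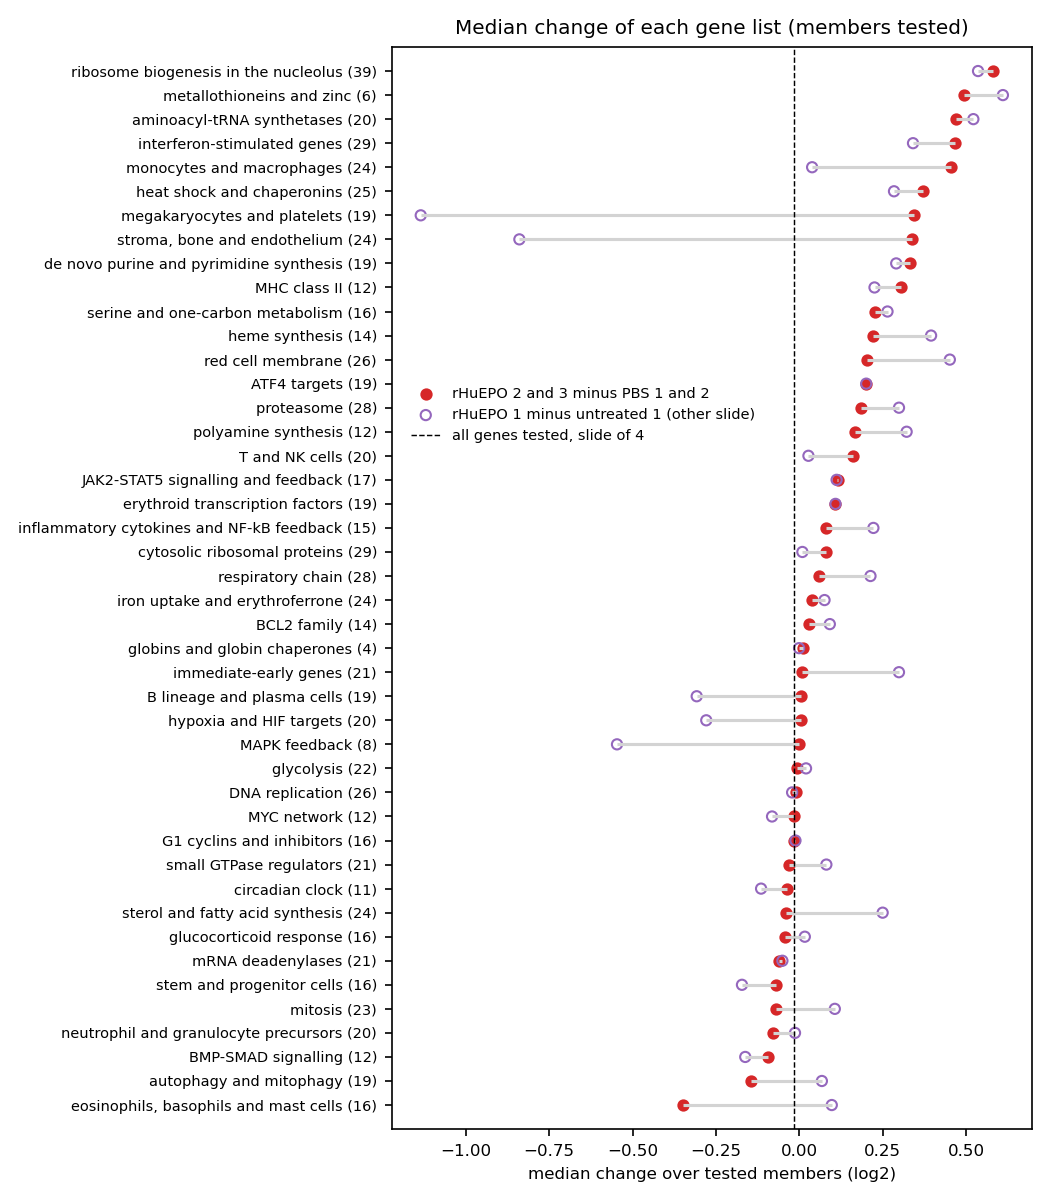
Median change (log2) of the tested members of 44 gene lists, for rHuEPO replicates 2 and 3 minus PBS (filled) and for rHuEPO 1 minus untreated on the other slide (open); the dashed line is the median of all genes, -0.017. Nucleolar, synthetase and nucleotide lists have similar medians in both contrasts, while megakaryocyte and stroma lists are 0.34 for both on the slide of 4 and -1.13 and -0.84 on the other.

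Genes of metal, hypoxia and early signalling responses gave single members of note. Mt2, a metallothionein that binds zinc, read 4.15 and 4.56 with PBS and 5.63 and 6.32 with rHuEPO, a change of 1.62 ± 0.30 (limma adjusted p = 0.415). Mt1 and the metal importer Slc39a8 differed by 0.78 ± 0.28 and 1.43 ± 0.30, and all 6 tested members of the list lay above 0 (median 0.49). Maff, a small MAF factor, read -2.75 and -2.57 against -1.34 and -1.25. Egr1, an immediate-early factor, read -3.70 (not well above background) and -0.79 with PBS and 0.83 and 1.01 with rHuEPO. Its PBS arrays differed by nearly as much as the arms, and its change of 3.17 ± 0.92 did not pass (limma adjusted p = 0.643). Nr4a1, also of the early response, differed by 0.52 ± 0.22. The 21 immediate-early genes had a median of 0.0080. Epas1, the HIF-2 alpha subunit, read 2.01 and 2.23 with PBS and 3.28 and 3.58 with rHuEPO, a change of 1.31 ± 0.21. Its difference on the other slide was -0.065. P4ha2, a collagen prolyl hydroxylase, was dim with PBS and at least 2.19-fold higher. On the other slide P4ha2 was well above background in the untreated sample only. Bnip3l, a mitophagy receptor, differed by -0.66 ± 0.25. The 20 tested hypoxia and HIF target genes had a median of 0.0057, and of -0.28 on the other slide. In 4 of the 20 both rHuEPO arrays exceeded both PBS arrays and in 7 both lay below (18.3% and 18.6% of all genes).

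Cell type lists showed how the marrow samples differed in composition or in RNA per cell. B lineage genes had the widest gap between the PBS arrays of the 44 lists. Vpreb1, the surrogate light chain of pre-B cells, read 1.77 on PBS replicate 1 and 5.02 on PBS replicate 2, with 3.01 and 2.96 on the rHuEPO arrays between them. Cd79a, a chain of the B cell receptor, read -1.61 and 0.70 with PBS and -0.53 and -0.41 with rHuEPO. For the 19 tested members the median difference of PBS 1 minus PBS 2 was -1.94, whereas the median change with treatment was 0.0064. Granulocyte precursors ran the other way, with mean levels of 0.32 and -0.23 on PBS replicates 1 and 2. Over all genes the SD of the difference was 0.57 between the PBS arrays, 0.39 between the rHuEPO arrays and 0.37 between the arms. The last is a difference of means of 2 arrays, which varies less than one of single arrays, so it is not like the others. By over 1 on the log2 scale, 961 genes differed between the PBS arrays and 301 between the rHuEPO arrays. Between the arms 283 did. Of these 177 were higher after rHuEPO (1.19% of all genes) and 106 lower (0.711%), and in 166 (1.11%) and 93 (0.624%) of them the arms did not overlap.

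**Figure D4:**
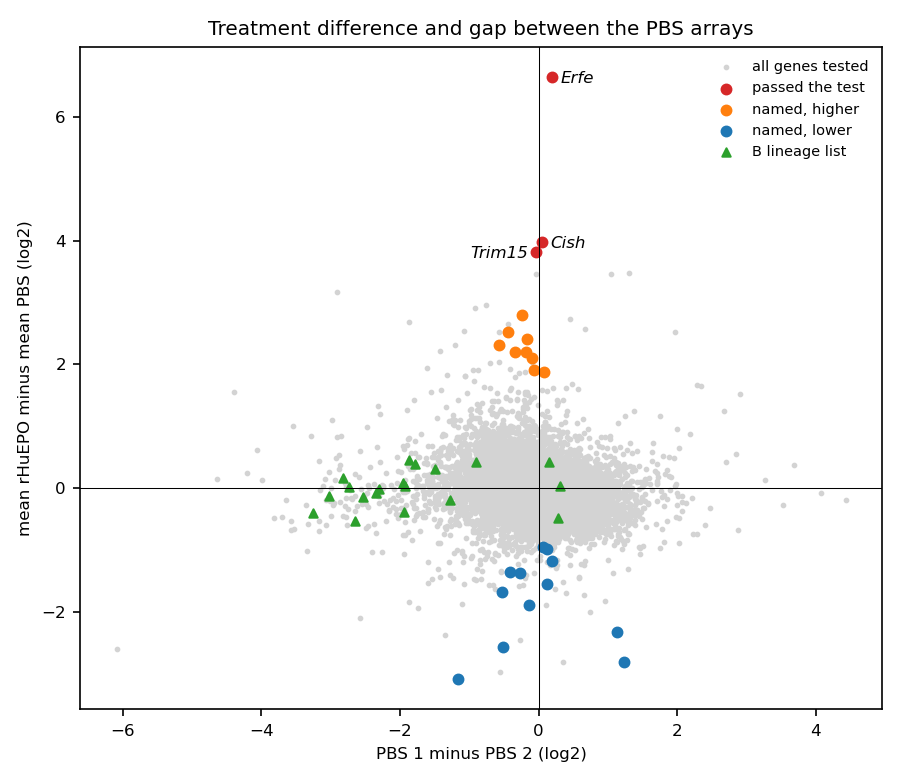
Change with rHuEPO (vertical, log2) against the difference PBS 1 minus PBS 2 (horizontal, log2) for 14905 genes. Erfe, Cish and Trim15 sit near 0 on the horizontal axis and between 3.81 and 6.65 on the vertical one, while most B lineage genes (triangles) spread to the left at little change with rHuEPO.

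Monocyte and macrophage genes had a median change of 0.45 (16 of 24 above 0), and 10 of 24 had both rHuEPO arrays above both PBS arrays (18.3% of all genes). The PBS arrays differed by more, with a median of -0.63 for PBS 1 minus PBS 2. Their gap was larger than the change in 18 of 24, against 64.25% of all genes. The median change was 0.22 without PBS replicate 1, 0.79 without PBS replicate 2 and 0.27 with normexp background correction. Marco, a scavenger receptor, read -2.08 and -1.01 with PBS and -0.14 and 0.66 with rHuEPO. Cd163, the receptor for hemoglobin bound to haptoglobin, read 0.15 and 0.24 against 0.97 and 0.83. The heme oxygenase gene Hmox1 differed by 0.74 ± 0.30. On the other slide the median was 0.038, with -0.53 for Marco and 0.057 for Cd163. T and NK cell genes had a median of 0.16, among them the adaptor Lat (0.94 ± 0.19) and Cd8a (0.50 ± 0.19). Their median was 0.027 on the other slide, with 10 of 20 above 0, and Lat was at -0.27 there. None of these genes passed the test.

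Stroma, bone and endothelium and the megakaryocyte list lay higher on this slide and lower on the other. Over all genes 47.2% lay above 0 here and 50.9% on the other slide. Of 24 stromal genes 18 were above 0 here (median 0.34), and 0 of 24 on the other slide (median -0.84). In 9 of the 24 both rHuEPO arrays were above both PBS arrays (18.3% of all genes). Spp1, the bone matrix protein osteopontin, read 2.28 and 2.11 with PBS and 2.93 and 2.82 with rHuEPO, and Cdh5, the cadherin of endothelium, differed by 0.66 ± 0.18. The receptor gene Pdgfra was dim with PBS and at least 1.71-fold higher. The collagen gene Col1a1 shows the spread within arms, with -0.31 and 2.57 with PBS and 0.15 and 2.85 with rHuEPO. The stromal median on the slide of 4 was 0.095 without PBS replicate 1 and 0.61 without PBS replicate 2. Of 19 megakaryocyte genes 18 lay above 0 (median 0.34) and 1 on the other slide (median -1.13). Only in 2 of the 19 were both rHuEPO arrays above both PBS arrays (18.3% of all genes). The list's mean level was -0.025 and -0.26 with PBS, 0.48 on rHuEPO replicate 2 and -0.19 on rHuEPO replicate 3, so the last lay between the PBS arrays. Without rHuEPO replicate 2 the median was -0.052, and without rHuEPO replicate 3 it was 0.74. Pf4, the platelet factor, read 6.60 there against 6.07 on rHuEPO replicate 3 and 6.19 and 5.74 on the PBS arrays. Eosinophil, basophil and mast cell genes lay lower, with 2 of 16 above 0 and a median of -0.35, but 8 of 16 and 0.097 on the other slide. Prg3, Epx and Il5ra differed by -0.63 ± 0.25, -0.66 ± 0.27 and -0.69 ± 0.30, with rHuEPO replicate 3 the lowest of the 4 arrays in each. On the other slide they were at 0.64, 0.51 and -0.019.

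**Figure D5:**
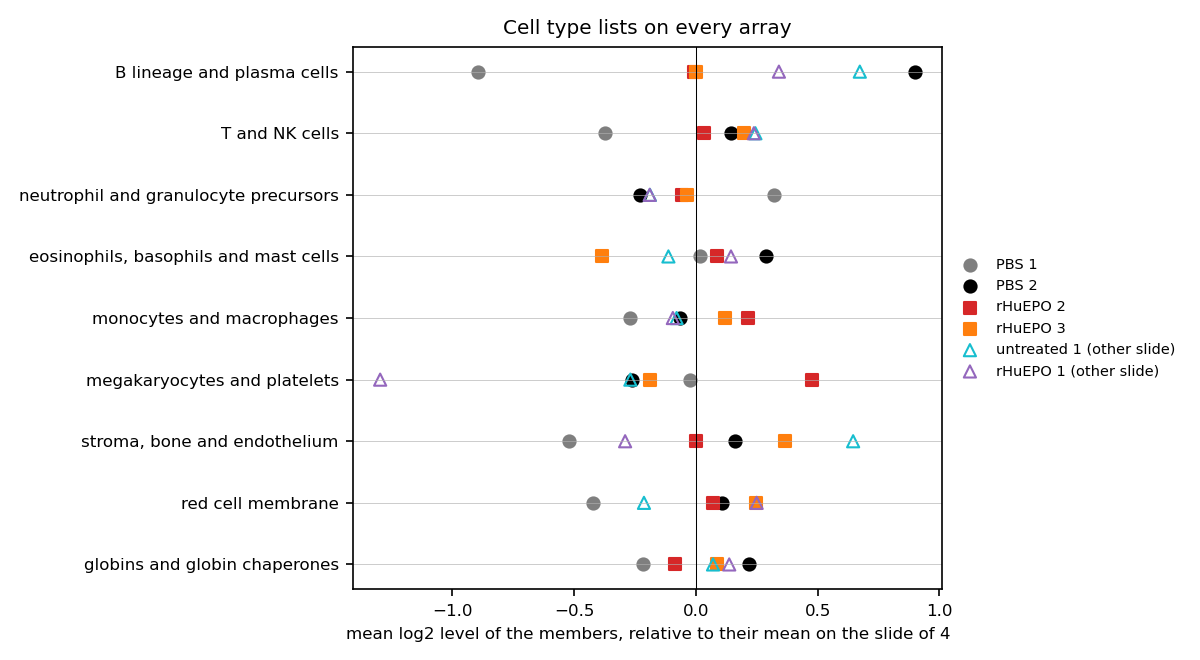
Mean log2 level of 9 cell type lists on each array, each gene centred on its mean over the slide of 4. The B lineage list runs from -0.89 on PBS replicate 1 to 0.90 on PBS replicate 2 with the rHuEPO arrays at -0.0098 and 0.0024, and the megakaryocyte list is highest on rHuEPO replicate 2.

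How far the differences recurred was read on the other slide, which shares no array with the comparison but sets rHuEPO against an uninjected sample. Over all genes tested 50.9% had a higher reading after rHuEPO there. Of the 2726 genes with both rHuEPO arrays above both PBS arrays, 73.2% did. Of the 2768 in the opposite order 70.0% were lower there. Among the 29 that were higher by over 2 on the log2 scale it was 27, and among the 8 lower by over 2 it was 3. For 13 of those 29 neither PBS array was well above background, and for 6 of those 8 neither rHuEPO array was. Past 1 on the log2 scale the shares were alike, at 71.7% of 166 higher genes and 73.1% of 93 lower ones. Across genes, which are not independent replicates, the changes of both slides correlated with Pearson's r = 0.31 and a Spearman coefficient of 0.33. The difference between the slides was tested for each gene, and none passed (limma, smallest adjusted p = 0.774), with 608 genes (4.08%) at an unadjusted p below 0.05. Nfib, a nuclear factor I gene, led with a change of 0.70 here and -2.35 there, and the protease gene Adamts1 followed its direction with 1.92 and -0.81. In the opposite direction Cox4i2 had the smallest p, as a gene dim on both arrays of the other slide. That test holds 1 array for each treatment on the other slide, and the untreated sample stands in for PBS, so slide and injection cannot be told apart. On both slides the rHuEPO arrays lay at later positions than the controls, so recurrence cannot tell treatment from position.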

How the data were processed

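Total RNA from marrow was labelled with Cy3, per the labels' protocols, and read on 1-colour Agilent arrays, 1 for each of 6 samples. The scanner output deposited by the authors is spot intensity, with background already subtracted, per the file headers, by Feature Extraction 10.7.3.1. The authors' deposited value table holds log2 values. Set against the scanner values centred on each probe's median, they had slopes of 0.9988 to 1.0007, which settles scale, centring and direction. How the authors scaled the arrays is not given here. Column medians were -0.0571 and -0.0978 for PBS, 0.117, 0.0112 and 0.0868 for rHuEPO and -0.104 for the untreated sample.

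Here log2 of the processed signal was taken minus its 75th percentile on that array. Control spots (1639) and outlier spots were left out, and repeat spots averaged. Saturation was absent from all arrays. Probes entered the test if at least 2 of 4 arrays were well above background, which kept 19592 of 41174. The brightest of them stood for its gene, and in 1136 of the 3770 genes with several probes the signs disagreed. RefSeq symbols (GRCm38.p6) were found by accession for 26690 probes (64.8%) and 11242 of the 14905 genes. Where an arm was well above background on no array, the fold is a bound, taken against the higher of the probe's own reading and the lowest signal well above background on each array. The p beside a bound tests the readings.

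Tests were two-sided, with limma 3.58.1 in R 4.3.3 (lmFit and eBayes, 2 residual and 3.21 prior degrees of freedom) and Benjamini-Hochberg adjustment over all genes at 0.05. Simulated data for this comparison, also 14905 genes, gave a recovery of 0% for 2-fold, 54% for 4-fold, 68% for 8-fold and 82% for 16-fold changes and 0 false calls. The simulated noise was normal and independent between genes, with each gene's residual SD. Shifts that many genes share on an array, or that follow slide position, are not in it, so its false calls do not carry over to the real arrays. Arrays correlated at 0.978 to 0.990, and each counted as 1 sample. Slide and scan coincided.

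The members and the 44 gene lists were chosen with earlier results of these data known, and lists are described, not tested. Of 954 list entries 845 were tested, while 71 fell under the filter and 38 lacked a matched probe. The naming rule took 12 genes per direction (genes that passed, then the smallest p among those whose arms did not overlap, without unnamed, predicted, clone or pseudogene entries), a panel of 18, the 3 smallest p of each list, and 5 per direction for the difference between slides. It named 163 genes, of which 95 are given, and some values are not reported here. Cell type markers are named besides. Alternatives covered scaling, background, filter, prior, array weights, probe choice, 6-array fits, a replicate block and leaving out each array.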

Additional observations from a re-analysis of the deposited data

How the results depend on the processing

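With 2 arrays in each arm, 2-fold changes were not recoverable on simulated data, and dim readings, treated arm and slide position limit single genes as stated above. All 3 calls were kept under quantile and median scaling, the deposited table, array weights and the mean of all probes. They were also kept in the 6-array fit with 3 groups. The 6-array fit with slide and treatment means repeats the reported fit by construction, since each array of the other slide has its own mean. Erfe and Cish were kept with an intensity trend and with normexp. The count was 0 with no filter on dim probes (at an unadjusted p below 0.05 limma then listed 1208 higher and 1121 lower), 1 (Cish) with a filter on all 4 arrays, which leaves Erfe and Trim15 untested, and 10 with all 6 arrays and slide as a block. The fit with 3 groups called 4, of which 1 was lower. Leaving out 1 array gave 0 to 25, of which 3 were lower without PBS replicate 1 and 4 without PBS replicate 2. The lone array is then assumed to vary like the others. The 4 arrays share only the replicate number 2, so the replicate block was fitted on rHuEPO 1 to 3 and PBS 1 and 2, which gave 13 calls, 8 higher and 5 lower, with Erfe, Cish and Trim15 among them. Same-numbered deviations correlated at r = -0.105 over 14905 genes. The rHuEPO deviation spans both slides, so whether the numbers pair the samples cannot be decided from it. Normexp on all spots could not be used, because 28 spots of PBS replicate 2 with an uneven local background moved its corrected median to 756 (85.9 without them). It was run without them, on median signals, a choice made after seeing the data. Of 44 lists, 33 had a median above that of all genes, 19 with no filter and 28 to 34 otherwise. Some values changed sign, and the cause was not tested. Alas2 (-0.038) gave 0.023 under median scaling, 0.062 with 3 groups, 0.049 with the replicate block and -0.49 to 0.42 without 1 array. Gdf15 (0.011) gave -0.11 with normexp, -0.44 with slide as a block, -0.00071 with 3 groups, -0.067 with the replicate block and -1.38 to 1.40 without 1 array. Hba-a1 (0.061) gave -0.015 with slide as a block and -0.050 to 0.17 without 1 array. Bcl2l1 (0.11) gave -0.15 to 0.37 and Osm (0.30) -0.44 to 1.05 without 1 array. Nfib (0.70) gave -0.32 with slide as a block and -0.23 with the replicate block. The megakaryocyte median (0.34) gave -0.13 with slide as a block, -0.16 with 3 groups and -0.28 with the replicate block, and the stromal median (0.34) -0.19 with slide as a block. The difference between slides called 0 genes in each of the 7 alternatives run, with 608 at an unadjusted p below 0.05 in the reported fit.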

Other observations

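Among the BCL2 family and the G1 cyclins and inhibitors no gene passed the test, and the genes given here had a limma adjusted p of 0.595 to 0.730. The cell cycle inhibitor Cdkn1b (p27) read 1.89 and 1.95 with PBS and 1.46 and 1.44 with rHuEPO, a change of -0.47 ± 0.17. The inhibitor Cdkn2d (p19) lay the other way, by 0.57 ± 0.24 here and 0.83 on the other slide. Cdkn1c (p57), dim on both rHuEPO arrays, was lower by at least 1.62-fold. The death-promoting BH3 genes Bmf and Bcl2l11 differed by -0.74 ± 0.26 and -0.44 ± 0.17, and on the other slide by -0.30 and -0.39. Bcl2a1b, a survival gene of myeloid cells, lay the other way here (0.80 ± 0.25) and at -0.0073 on the other slide. The median of the BCL2 family was 0.030 (8 of 14 above 0). That of the G1 cyclins and inhibitors was -0.017 (7 of 16 above 0), and both rHuEPO arrays lay below both PBS arrays in 6 of 16 and above in 3, against 18.6% and 18.3% of all genes.

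Autophagy genes had 5 of 19 members above 0 and a median of -0.14. Ulk1, the kinase that starts autophagy, read 5.55 and 5.36 with PBS and 4.85 and 4.65 with rHuEPO, a change of -0.71 ± 0.19, but -0.063 on the other slide. Gabarapl1, an autophagosome protein, read 4.97 and 5.08 against 5.67 and 5.69, and its change of 0.66 ± 0.17 was 0.53 on the other slide. Neither passed the test (limma adjusted p = 0.597 and 0.588). The list had 11 of 19 above 0 and a median of 0.068 on the other slide.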
